A study of Mus musculus with 6 samples.

Results

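The 9 Wnt feedback inhibitor genes Axin2, Rnf43, Znrf3, Nkd1, Notum, Apcdd1, Wif1, Bambi and Sp5 were taken by name from the 53953 rows of each expression file. The list rests on their known role and sets no threshold on a measured value, but it was drawn up with earlier results of these data known. All 9 were found by their Ensembl identifiers, and 6 of them were among the 12913 genes with enough signal to test. They were measured in organoids, 3-dimensional epithelial cultures grown in Matrigel from crypts of the proximal small intestine of C57BL/6 wild-type mice, at passage 3 to 5. The arachidonic acid organoids (3 libraries) received arachidonic acid, a polyunsaturated fatty acid of cell membranes, for 3 days and were then passaged. The control organoids (3 libraries) received the ethanol vehicle at 0.1%, and total RNA of both groups was taken on day 3 after the passage. The title of the series concerns intestinal regeneration and Wnt signalling. The comparison therefore asks whether genes that Wnt signalling induces, most of them against itself, moved with the fatty acid. Bambi is described below by its action on receptors of other signals, BMP and TGF-beta, and not on Wnt signalling. Neither the concentration of arachidonic acid nor the age of the mice is given in the sources used here. The medium was a commercial growth medium, and the cultures carried no genetic change by their labels. The labels do not say whether a group's 3 libraries stand for different mice or cultures, so each p-value reflects how far these libraries spread, which may be technical.

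Canonical Wnt signalling starts when a Wnt ligand binds a frizzled receptor and an LRP co-receptor, which stops the destruction complex of Axin, APC and the kinases GSK3 and CK1 from breaking down beta-catenin. Beta-catenin then enters the nucleus and, with TCF factors, switches on target genes, and some of those targets act back on the pathway at the ligand, the receptor, dishevelled, the destruction complex or the promoters. In the intestinal crypt the pathway keeps the stem cells dividing, and RNF43 and ZNRF3 limit the receptors there unless R-spondin, bound to an LGR receptor, removes them.

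The promoters of 4 members are shown because they hold the contrast described below, 3 genes that rose and the most abundant member, which did not pass the test. Each window runs from 250 bases before to 50 bases after the start of the gene and is printed 5′ to 3′ on the strand of the gene, from RefSeq on the mouse build GRCm38.p6. Capitals mark the only match of a TCF/LEF core motif, searched as ATCAAAG and TTCAAAG on both strands. The match in Sp5 reads CTTTGAT, which is ATCAAAG on the opposite strand, and its first printed base lies at position -104 from the start site.
Sp5 promoter, chr2:70474673-70474972 (+ strand): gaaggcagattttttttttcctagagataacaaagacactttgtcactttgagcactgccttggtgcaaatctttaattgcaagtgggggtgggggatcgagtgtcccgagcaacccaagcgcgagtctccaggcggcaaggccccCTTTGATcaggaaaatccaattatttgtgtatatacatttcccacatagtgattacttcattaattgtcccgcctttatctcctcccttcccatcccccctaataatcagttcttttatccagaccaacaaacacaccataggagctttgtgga
Rnf43 promoter, chr11:87662837-87663136 (+ strand): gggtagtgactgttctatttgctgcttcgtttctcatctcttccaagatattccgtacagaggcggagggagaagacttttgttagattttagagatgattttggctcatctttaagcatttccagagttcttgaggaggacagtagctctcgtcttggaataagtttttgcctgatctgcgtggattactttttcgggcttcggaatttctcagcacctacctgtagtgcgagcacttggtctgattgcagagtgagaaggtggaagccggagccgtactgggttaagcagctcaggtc
Nkd1 promoter, chr8:88527383-88527682 (+ strand): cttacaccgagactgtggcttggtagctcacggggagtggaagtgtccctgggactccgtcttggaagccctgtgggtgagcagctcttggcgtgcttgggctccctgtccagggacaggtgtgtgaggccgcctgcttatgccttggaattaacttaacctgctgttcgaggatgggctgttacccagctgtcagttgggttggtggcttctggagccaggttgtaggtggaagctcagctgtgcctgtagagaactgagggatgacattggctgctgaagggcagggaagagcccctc
Axin2 promoter, chr11:108920099-108920398 (+ strand): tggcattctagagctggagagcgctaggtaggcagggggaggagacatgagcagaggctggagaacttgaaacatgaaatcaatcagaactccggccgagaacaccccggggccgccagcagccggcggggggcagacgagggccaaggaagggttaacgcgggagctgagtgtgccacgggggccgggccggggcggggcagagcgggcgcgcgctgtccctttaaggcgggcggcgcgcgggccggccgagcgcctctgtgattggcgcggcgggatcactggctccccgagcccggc
RefSeq windows were matched for 5 of the 9 members, 6 windows in all, since Rnf43 has 2, and 1 of the 6 held a match. Over all 32851 windows of 27025 genes, ATCAAAG was in 3.73%, TTCAAAG in 5.14% and at least 1 of the motifs in 8.65%. The G and C content was 45% in the Sp5 window, 46.7% in the printed Rnf43 window, 58.3% in the Nkd1 window and 70% in the Axin2 window. A match of 7 letters is a description of the sequence and does not show that a factor binds there, and a window with no match says nothing of sites elsewhere.

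The files gave expression as FPKM, the fragments assigned to a gene per length of its transcripts and per size of the library. The values implied 35.6 to 50.8 M fragments in the arachidonic acid libraries and 36.6 to 38.5 M in the vehicle libraries (M, 1e+06). The epithelial markers Epcam, Cdh1, Krt8 and Vil1 were abundant in all 6 libraries, though not all at equal levels in the groups. Cdh1 and Vil1 did not pass the test described below, with Cdh1 at 294 to 307 FPKM with arachidonic acid and at 282 to 302 FPKM with vehicle. Epcam was lower, at 361 ± 80.8 FPKM with arachidonic acid and 548 ± 19.0 FPKM with vehicle (SD, n = 3 libraries each, limma adjusted p = 0.017), and Krt8 was higher, at 1632 ± 189 FPKM with arachidonic acid and 759 ± 24.8 FPKM with vehicle (limma adjusted p = 0.00092). Arachidonic acid replicate 1 stood apart from its group. On the first principal component of all tested genes, which held 85.2% of the variance, it lay at 10.2, with arachidonic acid replicates 2 and 3 at 58.1 and 54.6 and the vehicle libraries between -41.6 and -40.4. Its place is therefore given for each member that changed.

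Of the 6 tested members, Sp5, Nkd1 and Rnf43 rose with arachidonic acid, Apcdd1 fell, and Axin2 and Znrf3 did not pass the test. The test was limma on log2(FPKM + 1) across all genes that averaged at least 1 FPKM over the 6 libraries, and a gene was called where its p, after Benjamini-Hochberg adjustment across the 12913 genes, was under 0.05. By this rule 20.8% of all tested genes were higher, 19.4% were lower and 40.2% changed in either direction, so a call was common among all genes. The 4 calls among 6 members are read gene by gene and not as a property of the group. The median log2 fold change was 0.36 over the 6 tested members and -0.03 over all tested genes. Nkd1 passed the filter on low values only through the arachidonic acid libraries, and Notum, Wif1 and Bambi lay under it. The median of the members therefore depends on the filter and is not read as a shift of the group. Without arachidonic acid replicate 1 the members called were again 3 higher and 1 lower. Calls were more common over all genes in that fit, with 3554 higher and 4192 lower, against 2690 and 2502 with all 6 libraries.

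**Figure D1:**
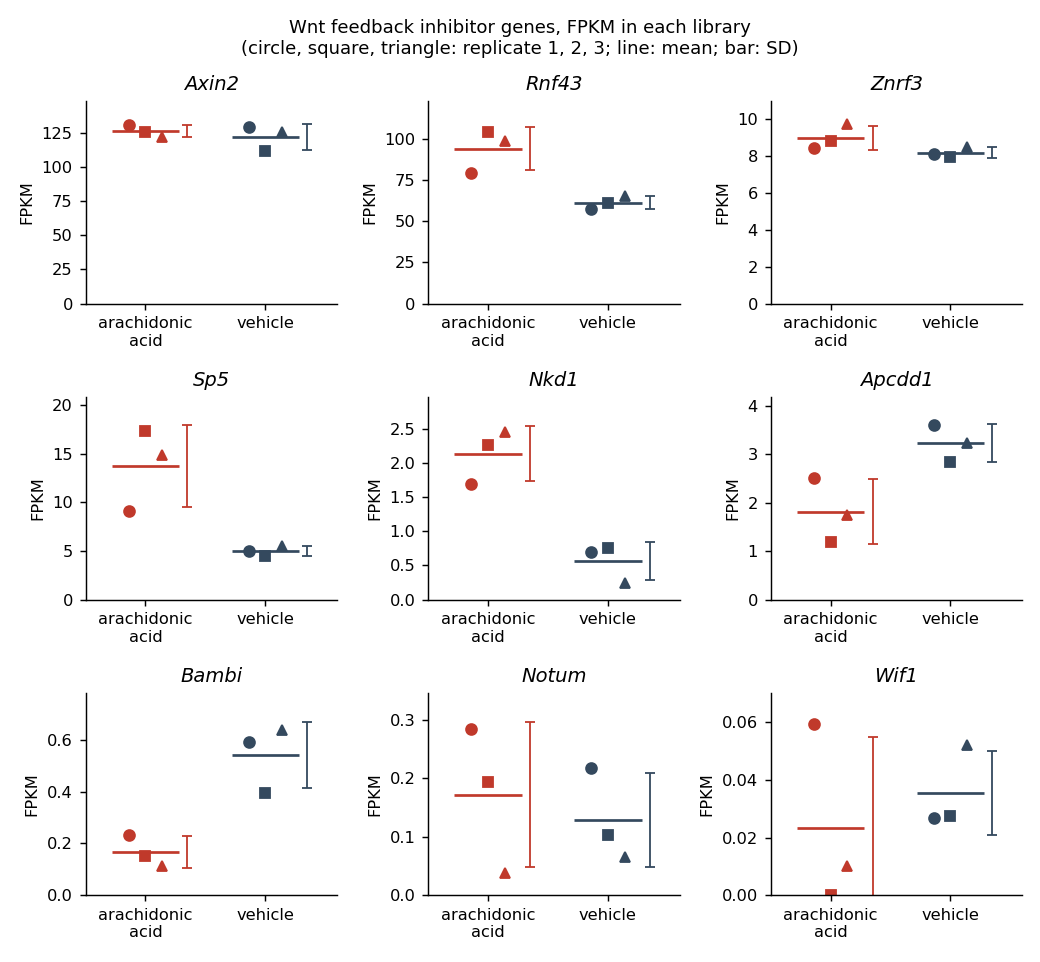
FPKM of each of the 9 members in the 3 arachidonic acid libraries (left, red) and the 3 vehicle libraries (right, dark), each panel with its own axis from 0. Points are libraries, lines are means and bars are SD, cut at 0 for Wif1. Rnf43, Sp5 and Nkd1 lie higher in every arachidonic acid library than in any vehicle library, Apcdd1 and Bambi lie lower, and the groups overlap for Axin2, Znrf3, Notum and Wif1.

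The members spanned a wide range of levels per length. With vehicle, Axin2 had the highest mean FPKM, followed by Rnf43, Znrf3, Sp5, Apcdd1, Nkd1, Bambi, Notum and Wif1. The libraries of Nkd1 and Bambi overlapped, and no other neighbours in this order did. With arachidonic acid, Sp5 stood above Znrf3, Nkd1 above Apcdd1 and Notum above Bambi by their means, but the libraries of each of these pairs overlapped. The sum of the 9 genes was 232, 260.0 and 249.5 FPKM in the arachidonic acid libraries and 205, 189 and 209 FPKM in the vehicle libraries. Axin2 made up 48.3% to 56.2% of this sum with arachidonic acid and 58.8% to 63.2% with vehicle. Rnf43 made up 34.1% to 40.1% with arachidonic acid and 27.9% to 32.4% with vehicle. The place of a gene in the order depends on the length used. Scaled by the longest transcript in place of the mean transcript length, Axin2 averaged 50.2 with arachidonic acid and 48.7 with vehicle, and Rnf43 averaged 49.0 with arachidonic acid and 31.9 with vehicle.

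Axin2 (ENSMUSG00000000142, chromosome 11) encodes a scaffold of the destruction complex and is the feedback gene most often used as a readout of Wnt signalling. It stood at 130, 126 and 122 FPKM in arachidonic acid replicates 1 to 3, against 129, 111 and 125 FPKM in vehicle replicates 1 to 3. The groups overlapped, and vehicle replicate 2 was the lowest library. The means were 126 ± 4.48 FPKM with arachidonic acid and 122 ± 9.39 FPKM with vehicle (SD, n = 3 libraries each, as for all means here). The log2 fold change, a difference of means of log2(FPKM + 1) given as arachidonic acid minus vehicle here and below, was 0.05 (SE 0.07, limma adjusted p = 0.63). Its 95% interval ran from -0.13 to 0.23. The direction was not stable, at -0.015 without vehicle replicate 2 and at -0.0023 after quantile normalization.

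Nkd1 (ENSMUSG00000031661, chromosome 8) encodes naked cuticle 1, which binds dishevelled and dampens the signal between the receptor and the destruction complex. It was a rare transcript, at 1.69, 2.27 and 2.45 FPKM in arachidonic acid replicates 1 to 3 and at 0.701, 0.755 and 0.245 FPKM in vehicle replicates 1 to 3. Every arachidonic acid library lay above every vehicle library, and vehicle replicate 3 was lowest. These values rested on 231 to 341 fragments per library with arachidonic acid and 27 to 79 with vehicle. The mean FPKM was 3.77 times as high with arachidonic acid, at 2.14 ± 0.400, as with vehicle, at 0.567 ± 0.280. The log2 fold change was 1.01 (SE 0.19, limma adjusted p = 0.0079). Adding 1 to such low FPKM shrinks the difference, and the log2 fold change was 1.84 with 0.1 added (adjusted p = 0.014) and 2.05 when limma-voom was run on the recovered fragments (adjusted p = 0.0093).

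Rnf43 and Znrf3 encode related transmembrane E3 ubiquitin ligases that remove frizzled receptors from the cell surface. Rnf43 (ENSMUSG00000034177, chromosome 11) stood at 79.2, 104 and 99.1 FPKM in arachidonic acid replicates 1 to 3, against 57.2, 61.4 and 65.4 FPKM in vehicle replicates 1 to 3. The groups did not overlap, and arachidonic acid replicate 1 was the nearest to the vehicle libraries. The mean was 94.2 ± 13.3 FPKM with arachidonic acid and 61.4 ± 4.09 FPKM with vehicle, a ratio of 1.54. The log2 fold change was 0.60 (SE 0.11, 95% interval 0.33 to 0.88, limma adjusted p = 0.0080).

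Znrf3 (ENSMUSG00000041961, chromosome 11) stood at 8.47, 8.83 and 9.74 FPKM in arachidonic acid replicates 1 to 3, against 8.13, 7.94 and 8.50 FPKM in vehicle replicates 1 to 3. Arachidonic acid replicate 1 lay just under vehicle replicate 3, so the groups overlapped. The log2 fold change was 0.12 (SE 0.09, 95% interval -0.08 to 0.33, limma adjusted p = 0.28). A rise within that interval was not detectable at this spread. The ratio of Rnf43 FPKM to Znrf3 FPKM within a library was 9.34, 11.8 and 10.2 with arachidonic acid and 7.04, 7.74 and 7.69 with vehicle. This ratio was higher in each arachidonic acid library than in any vehicle library, and it was not tested.

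Sp5 (ENSMUSG00000075304, chromosome 2) encodes a zinc finger transcription factor that Wnt signalling induces and that represses other Wnt targets at their promoters. It had the largest log2 fold change among the 6 tested members when 1 was added to FPKM. With 0.1 added the log2 fold change was larger for Nkd1, at 1.84, than for Sp5, at 1.40. With limma-voom on the recovered fragments it was 2.05 for Nkd1 and 1.38 for Sp5. The values of Sp5 were 9.14, 17.3 and 14.8 FPKM in arachidonic acid replicates 1 to 3, against 4.98, 4.48 and 5.55 FPKM in vehicle replicates 1 to 3. The groups did not overlap, and the arachidonic acid libraries were spread more widely, with replicate 1 lowest. The mean was 13.8 ± 4.19 FPKM with arachidonic acid and 5.00 ± 0.533 FPKM with vehicle, a ratio of 2.75. The log2 fold change was 1.26 (SE 0.22, 95% interval 0.74 to 1.78, limma adjusted p = 0.0060). Its printed promoter is the only member window that held the searched motif.

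Apcdd1 (ENSMUSG00000071847, chromosome 18) encodes a membrane glycoprotein that binds Wnt ligands and LRP5 and inhibits signalling at the cell surface. It stood at 2.51, 1.19 and 1.76 FPKM in arachidonic acid replicates 1 to 3, against 3.62, 2.85 and 3.24 FPKM in vehicle replicates 1 to 3. Every arachidonic acid library lay below every vehicle library, with replicate 1 nearest to them. The mean was 1.82 ± 0.665 FPKM with arachidonic acid and 3.24 ± 0.386 FPKM with vehicle, a ratio of 0.562. The log2 fold change was -0.61 (SE 0.19, 95% interval -1.07 to -0.15, limma adjusted p = 0.042). This call lay near the threshold. It was lost on rescaling to TPM (adjusted p = 0.0506), without the filter (adjusted p = 0.12) and without any 1 library other than arachidonic acid replicate 1 (adjusted p = 0.081 to 0.14). Without arachidonic acid replicate 1 the log2 fold change was -0.78 (adjusted p = 0.0024).

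Bambi (ENSMUSG00000024232, chromosome 18) encodes a decoy receptor of the TGF-beta family that lacks a kinase domain, is induced by beta-catenin and blocks BMP and TGF-beta receptors. It was under the filter, at 0.234, 0.151 and 0.114 FPKM in arachidonic acid replicates 1 to 3 and 0.589, 0.396 and 0.638 FPKM in vehicle replicates 1 to 3. Each arachidonic acid library lay below each vehicle library, on 27 to 60 fragments with arachidonic acid and 73 to 124 with vehicle. The mean with arachidonic acid was 0.308 times that with vehicle. In a fit with no filter, over 28021 genes, the log2 fold change was -0.40 (SE 0.08, 95% interval -0.59 to -0.20, limma adjusted p = 0.025). In that fit 9.11% of all genes were higher and 7.46% lower by the same rule, and the groups did not overlap, with arachidonic acid lower, for 17.1%. At such levels a gene can be expressed by few cells or weakly by many, and in bulk RNA fewer cells of a type and less RNA per cell cannot be told apart, for any gene here.

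Notum and Wif1 encode secreted inhibitors, a carboxylesterase that removes the lipid from Wnt ligands and a factor that binds the ligands, and both were near the limit of detection. Notum (ENSMUSG00000042988, chromosome 11) had 23, 11 and 3 fragments in arachidonic acid replicates 1 to 3, or 0.284, 0.194 and 0.0387 FPKM. It had 13, 6 and 4 fragments in vehicle replicates 1 to 3, or 0.218, 0.103 and 0.0650 FPKM. The groups overlapped, and in the fit with no filter the log2 fold change was 0.05 (95% interval -0.17 to 0.28, limma adjusted p = 0.74). Wif1 (ENSMUSG00000020218, chromosome 10) had 6, 0 and 1 fragments in arachidonic acid replicates 1 to 3, or 0.0594, 0 and 0.0103 FPKM. It had 2, 2 and 4 fragments in vehicle replicates 1 to 3, or 0.0269, 0.0275 and 0.0521 FPKM. The count of 0 in arachidonic acid replicate 2 allows up to 0.0424 FPKM, the value of 3 fragments in that library, for counting error only. A difference between the groups was not detectable for Wif1 at this depth, and no fold is given.

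**Figure D2:**
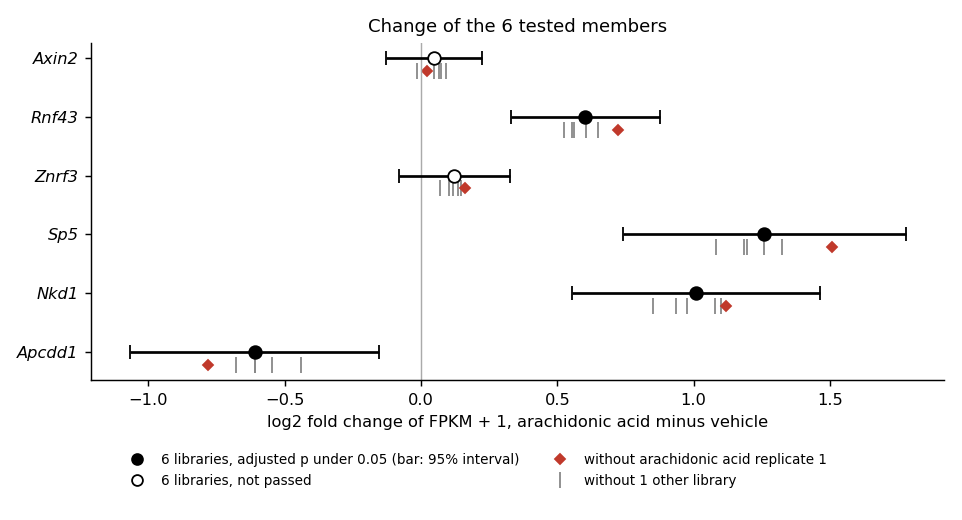
Log2 fold change of FPKM + 1, arachidonic acid minus vehicle, for the 6 tested members, with its 95% interval over 6 libraries (black; filled where the adjusted p was under 0.05). Red diamonds leave out arachidonic acid replicate 1 and grey ticks leave out 1 other library. Sp5, Nkd1 and Rnf43 stay above 0 and Apcdd1 below 0 in all of these fits, and Axin2 lies on both sides of 0.

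The arachidonic acid and vehicle libraries lay wholly apart for 4 of the 6 tested members, the 3 that rose and the 1 that fell, against 55.0% of all tested genes, with arachidonic acid higher for 27.6% and lower for 27.5%. Nkd1 is among the 4 and passed the filter only through the libraries in which it was high, so the count is a description and is not read against that share. Arachidonic acid replicate 1 lay between the vehicle mean and the other arachidonic acid libraries for each of the 4. On a scale in FPKM where 0 is the vehicle mean and 1 the average of arachidonic acid replicates 2 and 3, it lay at 0.37 for Sp5, 0.41 for Apcdd1, 0.44 for Rnf43 and 0.62 for Nkd1. Over 3052 called genes with a log2 fold change of at least 0.5 in size the median position was 0.58. These 4 members therefore shared with the called genes in general an intermediate value in replicate 1.

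Each member was also set against Axin2 within its own library, as log2 of (member FPKM + 1) over (Axin2 FPKM + 1), a measure that does not depend on the scaling of the library other than through the added 1. The 3 log2 ratios of Sp5 were -3.70, -2.79 and -2.95 with arachidonic acid and -4.45, -4.36 and -4.27 with vehicle. Those of Rnf43 were -0.71, -0.27 and -0.29 with arachidonic acid and -1.16, -0.85 and -0.92 with vehicle. The groups did not overlap for either gene. The difference of the mean log2 ratios was 1.21 for Sp5, 0.96 for Nkd1, 0.56 for Rnf43, -0.45 for Bambi and -0.66 for Apcdd1. For each of these 5 the exact two-sided permutation p was 0.1, the smallest that 3 libraries against 3 allow, and 0.16 after adjustment over the 8 ratios. For Znrf3 the difference was 0.07 (exact permutation p = 0.5, adjusted p = 0.57), for Wif1 -0.07 (exact permutation p = 0.5) and for Notum 0.0035 (exact permutation p = 0.9). None of the 8 ratios could pass the threshold in a design of this size.

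**Figure D3:**
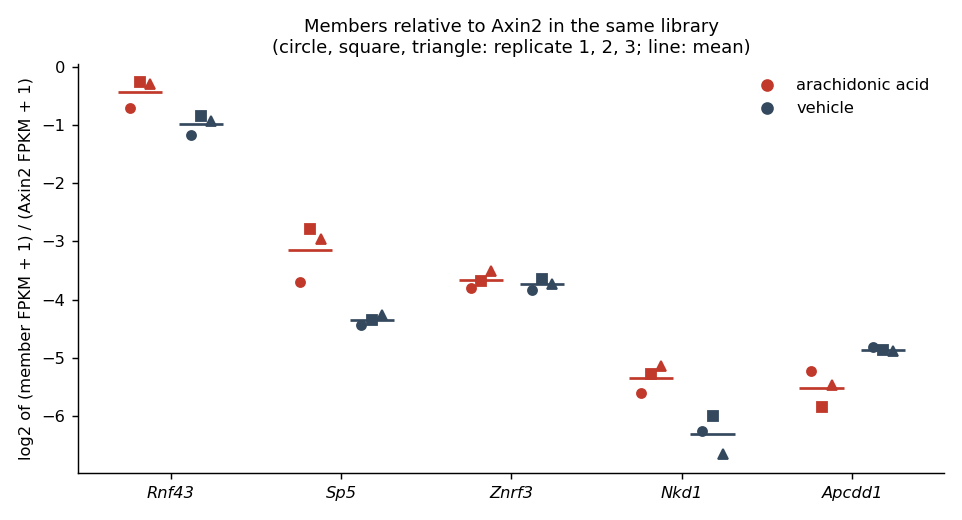
Log2 of (member FPKM + 1) over (Axin2 FPKM + 1) in each library for 5 members, arachidonic acid left and vehicle right within each gene. Lines are group means. Rnf43, Sp5 and Nkd1 lie higher relative to Axin2 in every arachidonic acid library than in any vehicle library, Apcdd1 lies lower, and Znrf3 overlaps.

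Other secreted or receptor-level Wnt antagonists were mostly under the filter on low values. Of 26 listed genes, such as the Dkk and Sfrp families, 25 were in the files, 6 were at 0 in all 6 libraries, and 5 could be tested. Shisa2, whose family holds frizzled receptors back in the endoplasmic reticulum, fell, at 5.83 ± 1.65 FPKM with arachidonic acid and 15.4 ± 0.817 FPKM with vehicle (log2 fold change -1.29, limma adjusted p = 0.0025). Tmem131l also fell, at 12.5 ± 1.94 FPKM with arachidonic acid and 17.7 ± 0.447 FPKM with vehicle (log2 fold change -0.48, limma adjusted p = 0.015). The call for Tmem131l was lost without any 1 of arachidonic acid replicates 2 and 3 and vehicle replicates 1 and 2 (highest adjusted p = 0.060). Kremen1, a receptor of Dkk proteins, was at 8.72 ± 0.0278 FPKM with arachidonic acid and 8.74 ± 0.557 FPKM with vehicle and did not pass. Igfbp4, which binds frizzled and LRP6, was at 71.0 ± 41.3 FPKM with arachidonic acid and 25.0 ± 3.57 FPKM with vehicle and did not pass either (limma adjusted p = 0.096). It stood at 23.5, 98.7 and 90.6 FPKM in arachidonic acid replicates 1 to 3. Replicate 1 thus lay among the vehicle libraries, which were at 21.3 to 28.5 FPKM.

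Inside the cell, 25 of 32 listed destruction complex genes and intracellular inhibitors were tested. Of these 4 rose, 6 fell and 15 did not pass, with a median log2 fold change of -0.02. The shares were 16% higher and 24% lower, against 20.8% and 19.4% of all tested genes. The calls are therefore read gene by gene and not as a property of the list. Tnks2, a tankyrase that marks Axin for breakdown, rose to 174 ± 13.9 FPKM with arachidonic acid, against 117 ± 2.10 FPKM with vehicle (log2 fold change 0.57, limma adjusted p = 0.0025). Rnf146, the ligase that acts on the Axin so marked, fell to 6.22 ± 0.237 FPKM with arachidonic acid, against 8.42 ± 0.150 FPKM with vehicle (log2 fold change -0.38, limma adjusted p = 0.010). Cxxc5, which binds dishevelled, fell to 2.86 ± 1.74 FPKM with arachidonic acid, against 15.0 ± 1.27 FPKM with vehicle (log2 fold change -2.14, limma adjusted p = 0.0027). Dact2, another partner of dishevelled, Ctnnbip1, which keeps beta-catenin from TCF factors, and the corepressor Tle3 fell too, with log2 fold changes of -0.81, -0.88 and -0.75. Their limma adjusted p was 0.0024 for Dact2, 0.0055 for Ctnnbip1 and 0.0027 for Tle3. Apc had a log2 fold change of 0.31 (limma adjusted p = 0.029) and Axin1, the paralog of Axin2, one of -0.26 (limma adjusted p = 0.029). These calls were lost under 6 of 14 alternatives for Apc and under 7 of 14 for Axin1. Gsk3b did not pass, at 44.8 ± 2.80 FPKM with arachidonic acid and 39.7 ± 1.88 FPKM with vehicle.

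The genes on which Rnf43 and Znrf3 act, and those that act on them, did not move as 1 group. The R-spondin receptors did not pass, Lgr5 at 74.1 ± 6.73 FPKM with arachidonic acid and 78.8 ± 9.79 FPKM with vehicle (limma adjusted p = 0.55) and Lgr4 at 58.9 ± 3.83 FPKM with arachidonic acid and 59.9 ± 1.77 FPKM with vehicle (limma adjusted p = 0.78). Usp8, the third of the 3 tested genes of this list, which removes ubiquitin from frizzled, did not pass either (log2 fold change 0.17, limma adjusted p = 0.083). Among ligands and their secretion, 3 of 21 genes were tested, and Wnt3, the Wnt ligand of Paneth cells, was at 1.01 ± 0.543 FPKM with arachidonic acid and 2.80 ± 0.171 FPKM with vehicle. Its log2 fold change was -0.95 (limma adjusted p = 0.011, and 0.0505 without vehicle replicate 1). Of 17 tested frizzled, LRP, dishevelled and TCF genes 5 rose, 4 fell and 8 did not pass. That was 29.4% higher and 23.5% lower, against 20.8% and 19.4% of all tested genes. The frizzled receptors, on which Rnf43 and Znrf3 act, differed among themselves, and 3 of the 6 tested fell, 1 rose and 2 did not pass. Fzd2 was at 0.617 ± 0.333 FPKM with arachidonic acid and 5.46 ± 0.421 FPKM with vehicle (log2 fold change -2.02, limma adjusted p = 0.00084). Fzd1 was at 0.599 ± 0.141 FPKM with arachidonic acid and 2.68 ± 0.198 FPKM with vehicle (log2 fold change -1.21, limma adjusted p = 0.0016). Both averaged under 1 FPKM with arachidonic acid and passed the filter only through the vehicle libraries. Fzd5, the most abundant of the 6 by its vehicle mean, had a log2 fold change of -0.65 and Fzd7 one of 0.40, and these calls were lost under 4 of 14 alternatives for Fzd5 and 7 of 14 for Fzd7. The co-receptor gene Lrp5 rose to 51.2 ± 12.1 FPKM with arachidonic acid, against 23.4 ± 0.610 FPKM with vehicle (log2 fold change 1.07, limma adjusted p = 0.0047). Ctnnb1, which encodes beta-catenin, rose to 546 ± 5.98 FPKM with arachidonic acid, against 427 ± 17.0 FPKM with vehicle (log2 fold change 0.35, limma adjusted p = 0.0053). Of 21 tested Wnt target genes outside the feedback inhibitors 8 rose, 4 fell and 9 did not pass, with a median log2 fold change of 0.03. These are 38.1% higher and 19.0% lower, beside the same 20.8% and 19.4% of all tested genes. Fosl1 and Tnfrsf19, 2 of the 8, reached the filter only because of the arachidonic acid libraries, and the call for Tnfrsf19 was lost under 7 of 14 alternatives. Among those that rose were Plaur, Ccnd1 and Cd44, with log2 fold changes of 4.37, 2.54 and 1.64 (limma adjusted p = 0.00041, 0.0012 and 0.00041). Ascl2, a stem cell transcription factor, rose too, with a log2 fold change of 1.56 (limma adjusted p = 0.0022). Among those that fell was Zfp703, with -0.64 (limma adjusted p = 0.0019).

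**Figure D4:**
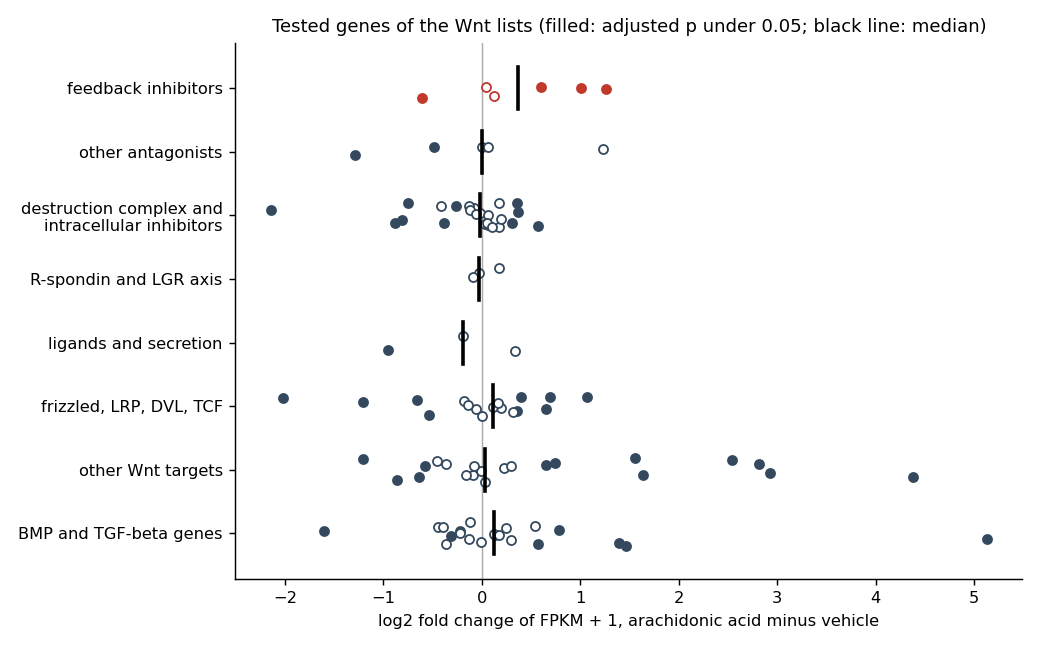
Log2 fold change of FPKM + 1, arachidonic acid minus vehicle, of the tested genes in 8 lists, with the feedback inhibitors in red at the top. Points are genes, filled where the adjusted p was under 0.05, and black lines are list medians. The list medians lie between -0.19 for ligands and secretion and 0.36 for the feedback inhibitors. The median of the feedback inhibitors includes Nkd1, which passed the filter only through the arachidonic acid libraries.

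Bambi acts on BMP and TGF-beta receptors, so that pathway was read beside it. Of 21 tested genes 5 rose, 3 fell and 13 did not pass, with a median log2 fold change of 0.12, and 2 of the 5 passed the filter only through the arachidonic acid libraries. Id1, a direct BMP target, rose to 14.3 ± 0.792 FPKM with arachidonic acid, against 9.30 ± 0.741 FPKM with vehicle (log2 fold change 0.57, limma adjusted p = 0.0043). Smad6, an inhibitory Smad that is also a BMP target, fell to 0.145, 0 and 0.135 FPKM in arachidonic acid replicates 1 to 3, against 1.91, 2.65 and 2.45 FPKM in vehicle replicates 1 to 3 (log2 fold change -1.60, limma adjusted p = 0.0011). Smad6 averaged under 1 FPKM with arachidonic acid and passed the filter only through the vehicle libraries. Tgfbr2, a TGF-beta receptor, rose to 66.6 ± 12.7 FPKM with arachidonic acid, against 24.4 ± 2.24 FPKM with vehicle (log2 fold change 1.40, limma adjusted p = 0.0014).

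Markers of cell types moved in the same comparison, in which 20.8% of all tested genes were higher and 19.4% lower. Of the tested Paneth cell markers 10 of 15 fell and 1 rose, with summed levels of 699 to 1183 FPKM with arachidonic acid and 2199 to 3311 FPKM with vehicle. The 1 that rose, Pla2g2a, passed the filter only through the arachidonic acid libraries. Goblet cell markers fell for 8 of 10 tested genes, with sums of 422 to 834 FPKM with arachidonic acid and 1738 to 2206 FPKM with vehicle. Enteroendocrine markers fell for 13 of 14 tested genes, with sums of 132 to 180 FPKM with arachidonic acid and 677 to 810 FPKM with vehicle. The goblet markers Ccl9 and Atoh1 and the enteroendocrine markers Nts, Neurod1 and Scg3 are among those that fell. These passed the filter only through the vehicle libraries. Of 19 stem cell markers 10 fell, 5 rose and 4 did not pass, and of 18 proliferation genes 1 rose and 17 did not pass. Among the stem cell markers, Tnfrsf19, which rose, passed the filter only through the arachidonic acid libraries. Gkn3, which fell, passed it only through the vehicle libraries. Of 18 enterocyte markers 6 fell, 2 rose and 10 did not pass, and Lct, which fell, passed the filter only through the vehicle libraries. Of 18 listed markers of regenerative epithelium 15 were tested and rose, 3 of them past the filter only through the arachidonic acid libraries, with sums of 1486 to 2928 FPKM with arachidonic acid and 231 to 270 FPKM with vehicle. The 2 tested tuft cell markers, Avil and Ltc4s, did not pass, and both reached the filter only through the arachidonic acid libraries. Cd68, the 1 tested gene of 14 immune, endothelial and glial markers, rose, at 14.7 ± 10.4 FPKM with arachidonic acid and 1.90 ± 0.323 FPKM with vehicle (limma adjusted p = 0.028). The part of these cell types in the changes of Sp5, Nkd1, Rnf43 and Apcdd1 was not tested.

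Stromal cells are a known source of Wnt antagonists in the gut wall, and of their listed markers Fbln1 and Vim were detected at testable levels. Of 18 listed stromal genes 2 were tested, with summed levels of the list of 37.2 to 38.8 FPKM with arachidonic acid and 34.0 to 39.4 FPKM with vehicle, mostly from Fbln1, at 36.6 ± 1.55 FPKM with arachidonic acid and 31.5 ± 2.19 FPKM with vehicle (limma adjusted p = 0.062). Vim fell, at 0.817 ± 0.566 FPKM with arachidonic acid and 4.77 ± 0.795 FPKM with vehicle (limma adjusted p = 0.0030), and passed the filter only through the vehicle libraries. Col1a1 was at 0.0463 to 0.0774 FPKM with arachidonic acid and 0.0146 to 0.0902 FPKM with vehicle. Col1a2 and Dcn were at or under 0.0313 FPKM with arachidonic acid and at 0 in the 3 vehicle libraries, and Lum and Foxl1 were at 0 in all 6.

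The genes closest to each member in profile were found by Pearson's r of log2(FPKM + 1) over the 6 libraries among 9288 genes averaging 5 FPKM or more, as a description with no test. They were Bnip1 and Epb41l4b for Sp5 (both r = 0.999), Rps6ka1 and Aff4 for Rnf43 (both r = 0.999), and Slc8b1 and Ccdc59 for Nkd1 (r = 0.997 and 0.996). For Apcdd1 they were Gemin7 and Tmem70 (r = 0.999 and 0.998). For Axin2, which did not separate the groups, the closest were Spryd7 and Chmp6 (r = 0.975 and 0.973). The 6 libraries fall into 2 groups and share their depth within a library, so many genes reach high values of r. By position, 4 of the 9 members, Axin2, Rnf43, Znrf3 and Notum, lie on chromosome 11, or 44.4%, against 8.21% of the 12780 tested genes with a known chromosome. The 9 include Notum, Wif1 and Bambi, which were not among the tested genes, so the shares are of unlike sets. Position was not tested.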

How the data were processed

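Total RNA of 6 organoid libraries was sequenced on an Illumina NovaSeq instrument. The deposited values are taken as FPKM, made by the authors from fragments per gene, transcript length and library size. The labels name no unit, and this one was inferred. The submitters' processing notes name featureCounts 1.5.0-p3, HISAT2 2.0.5 and StringTie 1.3.3b without their roles. Overlapping and antisense genes are uncertain, because build, annotation and strand handling are not stated in the sources used here.

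Multiplied by the mean transcript length of GENCODE M21, 96.3% to 96.7% of values under 100 fragments fell within 0.1 of a whole number of fragments, which gave the depths. Genes averaging at least 1 FPKM were tested as log2(FPKM + 1) with limma 3.58.1 (trend, two-sided) in R 4.3.3, with Benjamini-Hochberg adjustment over all tested genes and a threshold of 0.05. Single log2 ratios were tested by exact permutation of the libraries. A floor is 3 fragments in 1 library.

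The members, the gene lists and the tests were chosen with earlier results of these data known, so no p is given over a list and no set test was run. Genes named are all members, up to 6 genes of each Wnt list and up to 4 of each other list with the smallest p, Lgr5, Lgr4, Ctnnb1, Apc, Axin1 and Gsk3b, and the 2 genes closest in profile to Axin2 and to each called member. Fzd5, Fzd7 and Tnfrsf19 fall outside this rule and were chosen after their values were seen. The same holds for Pla2g2a, Atoh1, Nts, Neurod1 and Scg3. Epcam, Cdh1, Krt8 and Vil1, and the stromal genes Col1a1, Col1a2, Dcn, Lum and Foxl1, also fall outside it. Symbols were found for 53274 of 53465 Ensembl identifiers. Alternatives were scaling by TPM, by quantiles or by the median of ratios, limma-voom on fragments, a pseudocount of 0.1, a filter at 5 FPKM or none, a term for the replicate number, and leaving out each library. Ratios to Axin2 were recomputed with the other pseudocount and with each library left out.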

Additional observations from a re-analysis of the deposited data

How the results depend on the processing

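The 3 members called higher, Sp5, Nkd1 and Rnf43, kept their direction and their call under every alternative run for them, with an adjusted p of at most 0.031, 0.036 and 0.040 when 1 library was left out. Nkd1 could not be tested at a minimum mean of 5 FPKM. The count of members called lower was 0 on TPM rescaling and at the minimum of 5 FPKM, where Apcdd1 was under the filter, and 0 to 1 with 1 library left out. Over all genes, leaving out 1 library gave 1712 to 3554 called higher, against 2690 with all 6, and 1245 to 4192 called lower, against 2502. The highest count of genes lower, 4192, was without arachidonic acid replicate 1. The sign of Axin2 turned, to -0.0023 with quantile normalization and to -0.015 without vehicle replicate 2, within -0.015 to 0.092 over the libraries left out. The ratio of Znrf3 to Axin2 turned to -0.0018 without arachidonic acid replicate 3 (range up to 0.14). That of Notum to Axin2 turned to -0.039 and -0.013 without arachidonic acid replicates 1 and 2 and to -0.057 without vehicle replicate 3 (range up to 0.063). The cause of these changes was not tested.

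The labels do not say that equal replicate numbers pair the libraries. Deviations from the group means correlated at -0.0811, 0.210 and -0.0623 for the same numbers and at -0.177 to 0.190 for different numbers, so the numbers were not taken as pairs. With the replicate number as a block, 2263 genes were higher and 1998 lower, and the members called were again 3 higher and 1 lower. Depth limits Wif1 and Notum, with 0 to 23 fragments per library, and 3 libraries a group limit every p.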

Other observations

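Kremen2, which encodes a receptor of Dkk proteins, lay just under the filter and was chosen after its values were seen. It stood at 0.520, 2.48 and 2.33 FPKM in arachidonic acid replicates 1 to 3, against 0.0882, 0.232 and 0.0489 FPKM in vehicle replicates 1 to 3. The groups did not overlap, and arachidonic acid replicate 1 was nearest to the vehicle libraries. It was not tested in the fit across genes. Csnk1e and Csnk1a1, kinases of the destruction complex, stood at 47.5 ± 3.75 and 280.3 ± 38.4 FPKM with arachidonic acid and at 36.7 ± 0.796 and 215.7 ± 1.77 FPKM with vehicle (SD, n = 3 libraries each, chosen after their values were seen). Their limma adjusted p was 0.011 for Csnk1e and 0.031 for Csnk1a1, and the call for Csnk1a1 was lost under 7 of 14 alternatives.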
